A study of Mus musculus with 8 samples.

Results

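The genes described here are 83 transporters and transporter relatives of the mouse liver, out of 25239 genes in the deposited count table. They were chosen by symbol: the SLC22 organic ion transporters (Slc22a with a number, 25 genes), the SLCO organic anion transporting polypeptides (13 genes) and the ATP-binding cassette families Abca to Abcg (45 genes). The bile acid transporters Slco1a1, Slco1b2, Abcb11, Abcb4, Abcc2, Abcc3 and Abcc4 were left out of that rule, which reads symbols alone. RNA sequencing was done on livers of adult male mice. The knockout group, 4 libraries, was labelled Zfp36l1 fl/fl Alb-Cre+, and the control group, 4 libraries, carried the same loxP-flanked Zfp36l1 alleles with no Cre named and was given as wild type. The ZFP36L1 protein attaches to AU-rich stretches of the 3′ untranslated region (3′ UTR) of mRNAs and promotes their decay. Alb-Cre is a Cre recombinase driven by the promoter of albumin, a gene of hepatocytes and their precursors, and which cells lost Zfp36l1 was not measured in whole liver. The labels name no treatment, and since only the knockouts are labelled with Cre, effects of Cre and of the deletion cannot be told apart.

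SLC22 proteins carry organic cations, anions and zwitterions such as carnitine across the plasma membrane, and in the liver they take up drugs, vitamins and metabolites from blood. SLCO proteins take up larger organic anions, among them steroid conjugates, thyroid hormones and prostaglandins. ABC transporters use ATP to move lipids, sterols, fatty acyl-CoA, haem intermediates and conjugated xenobiotics across cellular membranes, while the ABCE and ABCF proteins share the ATP-binding domains but work on ribosomes.

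Total counts were 120200618 to 140582588 in the knockout libraries and 104842873 to 132017092 in the control libraries. Zfp36l1 itself had 76.9, 57.9, 67.2 and 58.3 CPM (counts scaled by TMM to a common library size) in knockout livers 1 to 4, against 263, 237, 324 and 212 CPM in control livers 1 to 4. All knockout libraries lay below all control libraries (log2 fold change −1.99, SE 0.14, edgeR adjusted p = 0.000309). A two-sided exact permutation test gave p = 0.0286, the smallest that 70 assignments allow, and with signs exchanged only within same-numbered pairs, a test added after seeing the data, it gave p = 0.125, the smallest that 16 assignments allow. The labels number the libraries and do not state that each is a separate mouse, and the p-values then reflect only how these libraries vary. In whole liver, fewer cells of a type and less RNA per cell cannot be told apart for any value below. Hepatocyte markers summed to 83700 to 92100 CPM in knockout livers and 69000 to 75700 CPM in control livers. Such a sum is weighted to the most abundant genes. Gene by gene, 4 of the 8 log2 fold changes were above 0 and 4 below, with a median of −0.01. The hepatocyte list has 8 genes, and edgeR called 0 of them at the adjusted threshold and 4 at an unadjusted p under 0.05, which 21.5% of all genes reached. DESeq2 called 4 of them, 3 higher and 1 lower, and limma with quality weights 2, 1 higher and 1 lower. Over all genes DESeq2 called 1738 of 14557 and limma with quality weights 1434 of 14861, against 801 of 14861 in edgeR.

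Of the 61 transporters that could be tested 5 changed, and for most of the others the difference between the groups was within the spread between livers. Slc22a27, Slc22a29 and Abca3 were higher in knockout livers, and Abcd4 and Abcc10 were lower. A gene was called changed at an adjusted p under 0.05 over all 14861 genes tested, and 5 of 61 members is 8.2%, against 5.39% of all genes. Higher calls were 3 members against 3.51% of all genes, and lower calls were 2 members against 1.88%. The CPM ranges of the groups did not overlap for 11 of 61 members (18%), 5 higher and 6 lower in knockout livers, against 15.1% of all genes. The median log2 fold change of the members was 0.02, against −0.01 for all genes, and the median size without sign was 0.18, against 0.17. These shares stand close to the background of all genes. With total counts alone as the scaling, the median of all genes shifted by −0.113 and edgeR called 2 members higher and 7 lower, in place of 3 and 2.

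**Figure D1:**
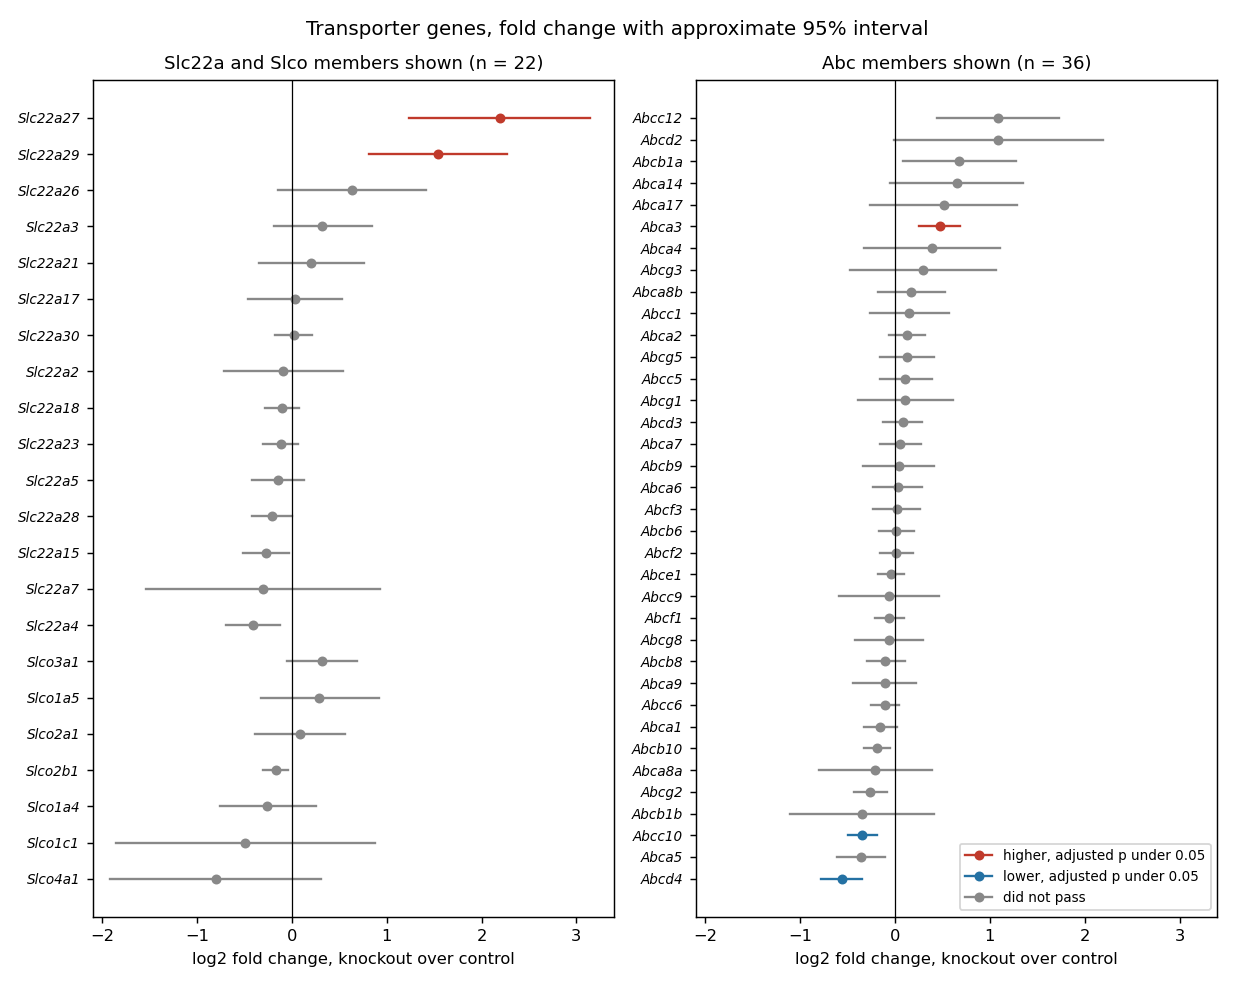
Log2 fold changes, knockout over control, of 58 of the 61 tested members with 95% confidence intervals, grouped by family. The 5 members past the threshold are Slc22a27 at 2.19, Slc22a29 at 1.54, Abca3 at 0.47, Abcd4 at −0.56 and Abcc10 at −0.35, and most other intervals cross 0.

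The number of members called depended on single libraries. Abcd4 stayed past the threshold in each of the 8 fits that left out 1 library, with a highest adjusted p of 0.049. When knockout 1, knockout 3, control 1 or control 2 was left out, Abcd4 was the only member called. Without knockout 2, 3 members were called, Abca3 and Slc22a29 being lost, and the same held without control 4. Without knockout 4, 4 members were called and Abcc10 was lost, and without control 3, 7 were called, with Abcc12 and Abcd2 added.

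**Figure D2:**
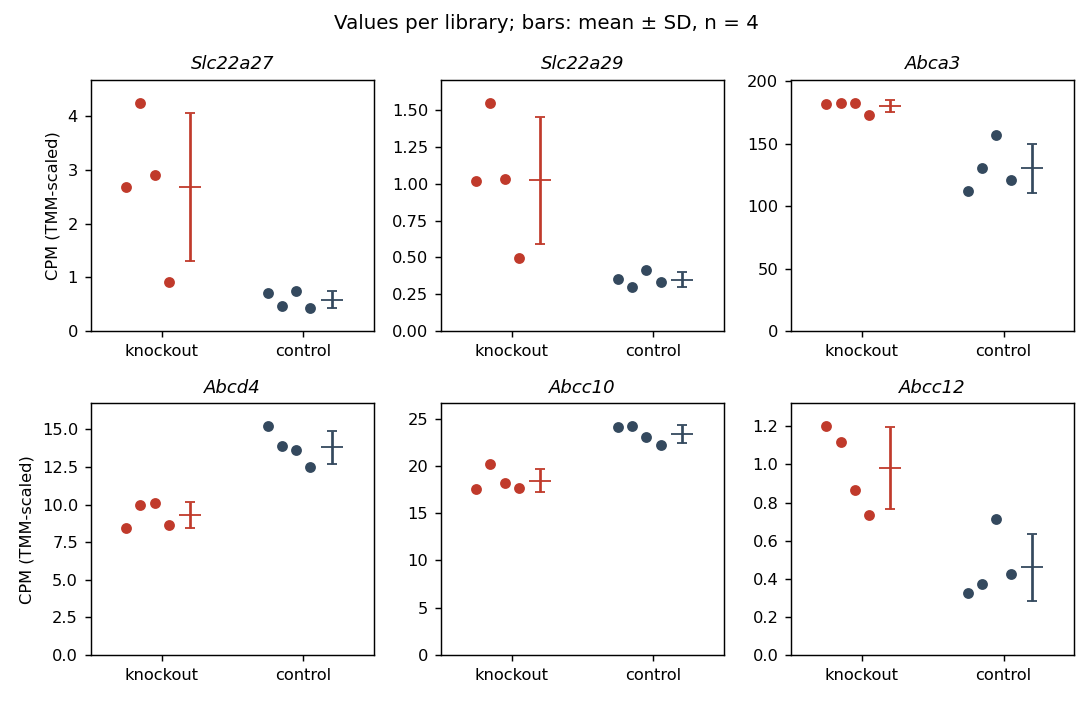
CPM in each of the 4 knockout and 4 control libraries for the members that passed the threshold and for Abcc12, with the group mean and SD. The groups do not overlap in any panel, and knockout liver 4 has the lowest knockout value of Slc22a27, 0.908 CPM, and of Slc22a29, 0.495 CPM.

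Slc22a27 and Slc22a29 belong to a cluster of 6 organic anion transporter genes, Slc22a19 and Slc22a26 to Slc22a30, at chr19:7673061-8405111 (GRCm38, minus strand). Slc22a27 (ENSMUSG00000067656) lies at chr19:7864388-7966027 and Slc22a29 (ENSMUSG00000075044) at chr19:8160165-8218900. Their neighbours Slc22a28 and Slc22a30 did not pass the test. The coding sequences fall into a pair of near-identical pairs: Slc22a27 and Slc22a29 were identical at 97.3% of aligned bases and Slc22a28 and Slc22a30 at 98.8%, while Slc22a27 matched Slc22a28 at 91.7% and Slc22a30 at 91.8%. Slc22a26 was farther away, at 74.2% identity with Slc22a27. The stretch below is shown because, of windows of its length, it holds the most bases that tell one pair from the other. It covers coding bases 922 to 1038 of Slc22a27 and Slc22a29 and 922 to 1041 of Slc22a28 and Slc22a30, from GENCODE M21, and capitals mark the 20 aligned positions, gaps included, at which the members of each pair share a state that differs from the other pair.
Slc22a27 coding stretch: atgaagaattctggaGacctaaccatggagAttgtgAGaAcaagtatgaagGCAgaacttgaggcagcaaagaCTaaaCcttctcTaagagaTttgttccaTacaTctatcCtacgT
Slc22a29 coding stretch: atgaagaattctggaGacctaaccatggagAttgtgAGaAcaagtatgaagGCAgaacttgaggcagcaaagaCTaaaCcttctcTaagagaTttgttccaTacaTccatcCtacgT
Slc22a28 coding stretch: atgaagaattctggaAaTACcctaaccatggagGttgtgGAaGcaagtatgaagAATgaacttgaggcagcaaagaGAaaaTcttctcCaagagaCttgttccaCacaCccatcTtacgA
Slc22a30 coding stretch: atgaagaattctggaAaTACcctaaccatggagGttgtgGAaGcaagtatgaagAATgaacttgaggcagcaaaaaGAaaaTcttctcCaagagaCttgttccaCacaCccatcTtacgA
In the whole coding sequence 99 of 164 variable positions split the genes in this way.

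At their annotated starts, Slc22a27 and Slc22a29 do not have like promoter windows in the reference genome, and these windows are shown for that contrast. Each gene has 1 annotated start in this source, and which start was used in these livers was not tested. Each runs from 250 bases before to 50 bases after the RefSeq start (GRCm38.p6, minus strand, 5′ to 3′). The windows lie at chr19:7965978-7966277 for Slc22a27, chr19:8218851-8219150 for Slc22a29 and chr19:8405056-8405355 for Slc22a30. Capitals mark a run of 22 bases, chosen as the longest shared by the windows of Slc22a29, Slc22a28 and Slc22a30. It was not found in the window of Slc22a27.
Slc22a27 promoter window: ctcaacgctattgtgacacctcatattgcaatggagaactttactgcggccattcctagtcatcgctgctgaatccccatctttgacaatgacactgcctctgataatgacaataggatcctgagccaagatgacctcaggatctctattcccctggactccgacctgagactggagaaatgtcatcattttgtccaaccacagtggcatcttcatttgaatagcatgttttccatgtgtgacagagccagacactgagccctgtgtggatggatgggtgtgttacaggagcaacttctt
Slc22a29 promoter window: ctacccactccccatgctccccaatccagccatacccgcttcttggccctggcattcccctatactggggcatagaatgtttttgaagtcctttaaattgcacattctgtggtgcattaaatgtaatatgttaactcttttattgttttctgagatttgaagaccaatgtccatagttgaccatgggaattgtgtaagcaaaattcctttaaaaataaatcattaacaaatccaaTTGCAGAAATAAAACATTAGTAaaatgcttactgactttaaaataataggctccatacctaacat
Slc22a30 promoter window: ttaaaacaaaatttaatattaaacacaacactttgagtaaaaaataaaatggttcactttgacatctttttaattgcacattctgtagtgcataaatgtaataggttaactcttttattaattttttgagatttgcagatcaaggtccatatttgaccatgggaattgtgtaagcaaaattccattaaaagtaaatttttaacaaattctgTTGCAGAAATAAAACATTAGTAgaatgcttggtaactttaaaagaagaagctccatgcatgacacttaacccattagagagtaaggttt
The windows of Slc22a27 and Slc22a29 were identical at 39.4% of aligned bases, against 74.2% for Slc22a29 and Slc22a30 and 98% for Slc22a28 and Slc22a30. The Slc22a27 window was also unlike those of Slc22a28, at 43%, and Slc22a30, at 43.4%. The run was found on either strand in 3 of 32851 promoter windows (0.0091%), those of Slc22a29, Slc22a28 and Slc22a30. It was picked from these 3 windows, so their matches were fixed in advance and the count does not mark a special element. It is a description of the windows and was not linked to any factor.

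Slc22a27 had 2.69, 4.25, 2.90 and 0.908 CPM in knockout livers, against 0.711, 0.466, 0.745 and 0.435 CPM in control livers. Every knockout liver was above every control liver, and the knockout livers spread widely, with liver 4 lowest. The means were 2.69 ± 1.37 CPM in knockout livers and 0.589 ± 0.161 CPM in control livers (SD, n = 4 each), a log2 fold change of 2.19 (SE 0.42, 95% confidence interval 1.23 to 3.14, adjusted p = 0.0230). It rested on 121 to 487 counts per knockout library and 53 to 104 per control library. The call was lost without knockout 1, knockout 3, control 1 or control 2, with adjusted p up to 0.0655. Over all 16 alternative fits that held the gene, the log2 fold change lay between 1.88 and 2.47.

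Slc22a29 had 1.02, 1.55, 1.03 and 0.495 CPM in knockout livers, against 0.351, 0.300, 0.415 and 0.336 CPM in control livers. The groups did not overlap, and knockout liver 2 was highest and liver 4 lowest, the same order of extremes as for Slc22a27. The log2 fold change was 1.54 (SE 0.33, 95% confidence interval 0.81 to 2.27, adjusted p = 0.0283), with means of 1.02 ± 0.432 CPM in knockout livers and 0.351 ± 0.0481 CPM in control livers. It lost its call without any 1 of 6 libraries, namely knockout 1, 2 or 3 or control 1, 2 or 4, with adjusted p up to 0.0771. In the transcripts 31.4% of the 50-base words of the coding sequence were shared by Slc22a27 and Slc22a29, so reads of these genes may have been split between them in either direction. Slc22a27 also shared 10.5% and Slc22a29 13.6% of these words with Slc22a30, which had far more reads, so the separate values are uncertain. Per kilobase of gene length, the Slc22a29 level was 0.336 to 0.517 of that of Slc22a27 in knockout livers and 0.468 to 0.733 in control livers, which overlap.

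Slc22a30 was the most abundant gene of the cluster, with 214, 192, 189 and 215 CPM in knockout livers, against 183, 219, 217 and 182 CPM in control livers. The ranges overlap almost completely (log2 fold change 0.02, 95% confidence interval −0.18 to 0.21, adjusted p = 0.937). Slc22a28 had 17.7, 16.1, 15.3 and 15.2 CPM in knockout livers, against 17.4, 19.5, 21.1 and 16.6 CPM in control livers (log2 fold change −0.21, 95% confidence interval −0.42 to 0.00, adjusted p = 0.225). Slc22a28 and Slc22a30 shared 50.8% of 50-base words, and per kilobase the ratio of Slc22a28 to Slc22a30 was 0.0704 to 0.0835 in knockout livers and 0.0887 to 0.0967 in control livers, with no overlap. Slc22a26 had 0.270 to 0.762 CPM in knockout livers and 0.238 to 0.501 CPM in control livers, at a log2 fold change of 0.63 (adjusted p = 0.334). Slc22a19 was listed at 0 counts in all 8 libraries, and a count of 0 allows up to 3 counts, or 0.0215 to 0.0277 CPM.

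**Figure D3:**
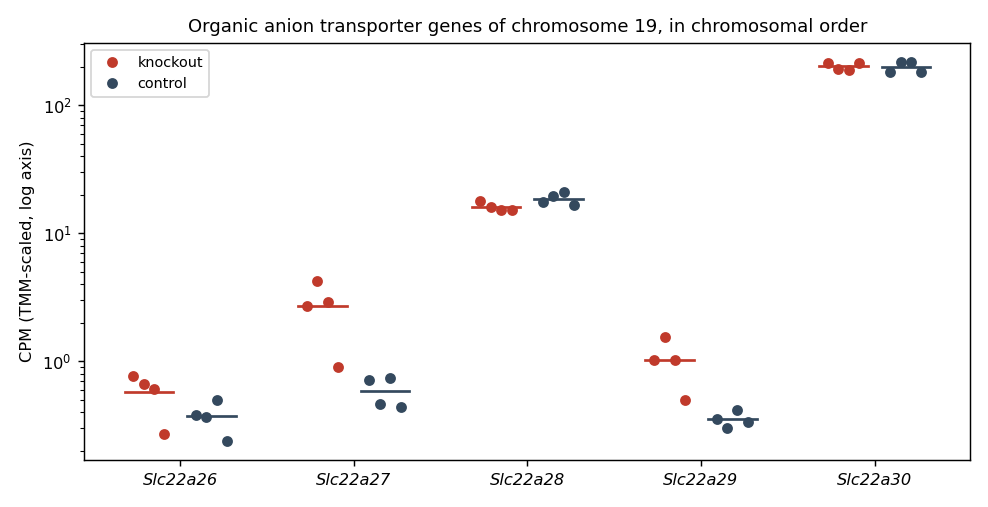
Levels of the cluster genes on chromosome 19 in CPM on a log axis, by library with lines at group means, in the order of their positions and without Slc22a19, which is at 0. Slc22a27 and Slc22a29 are higher in every knockout library than in any control library, while the groups overlap for Slc22a26, Slc22a28 and Slc22a30.

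Outside the cluster, Slc22a7 (OAT2), a carrier of the sinusoidal membrane of hepatocytes, was the only organic anion transporter tested. It had 38.0, 19.6, 27.5 and 87.9 CPM in knockout livers, against 56.1, 54.8, 24.7 and 78.0 CPM in control livers. The groups overlap over almost their whole range, with liver 4 highest in each (log2 fold change −0.30, 95% confidence interval −1.54 to 0.93, adjusted p = 0.784). In all, 2 of the 6 tested organic anion transporters rose and 0 fell, against 3.51% of all genes higher and 1.88% lower. Both are of the near-identical pair whose separate values are uncertain. The other 7 of 13 did not reach the filter on low counts. Slc22a6 and Slc22a8, the main organic anion transporters of the kidney, had at most 2 counts and 4 counts per library.

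Among the organic cation transporters, Slc22a3 (OCT3) had 6.38 to 9.22 CPM in knockout livers and 3.70 to 7.88 CPM in control livers, and Slc22a2 (OCT2), best known from the kidney, had 0.259 to 0.473 CPM and 0.265 to 0.427 CPM in the same order of groups. Neither passed the test, with adjusted p of 0.455 for Slc22a3 and 0.883 for Slc22a2.

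The carnitine transporter Slc22a5 (OCTN2) had 23.3, 24.8, 23.8 and 16.3 CPM in knockout livers, against 23.7, 25.6, 25.3 and 23.1 CPM in control livers. Knockout liver 4 stood below the other 7 livers, and the log2 fold change was −0.15 (95% confidence interval −0.42 to 0.13, adjusted p = 0.528). The ergothioneine transporter Slc22a4 had 2.56, 2.64, 3.33 and 2.72 CPM in knockout livers, against 3.57, 3.62, 4.17 and 3.63 CPM in control livers. Its groups did not overlap, but it missed the threshold (log2 fold change −0.41, 95% confidence interval −0.70 to −0.13, adjusted p = 0.0954), which it passed in DESeq2 and with scaling by total counts alone. Slc22a21, a carnitine transporter in mouse, had 0.776 to 0.915 CPM in knockout livers and 0.435 to 0.953 CPM in control livers.

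The less characterised Slc22a18 lies in an imprinted gene cluster in mouse and had 78.6, 84.9, 80.7 and 78.0 CPM in knockout livers, against 93.0, 80.9, 77.6 and 94.6 CPM in control livers. Control livers 1 and 4 were above every knockout liver and the other controls were not (log2 fold change −0.10, 95% confidence interval −0.28 to 0.07, adjusted p = 0.493). Slc22a23, Slc22a15 and Slc22a17 had log2 fold changes of −0.12, −0.27 and 0.03 and did not pass. Over the 16 tested members of the SLC22 family, 2 rose (12.5%) and 0 fell, against 3.51% of all genes higher and 1.88% lower. Those 2 are the near-identical pair Slc22a27 and Slc22a29, whose separate values are uncertain. The median log2 fold change was −0.04, and 8 estimates were above 0 and 8 below. The summed level of the family was 392 ± 14.1 CPM per kilobase in knockout livers and 393 ± 15.3 in control livers (SD, n = 4 each).

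In the SLCO family 7 of 13 genes were tested, and edgeR called 0 of them. At an unadjusted p under 0.05 the count was 1, DESeq2 called 1 lower, limma with quality weights called 0, and the median log2 fold change was −0.17. Over all genes DESeq2 called 724 of 14557 lower. The gene with the narrowest interval was Slco2b1 (OATP2B1), which takes up steroid sulfates and statins. Slco2b1 had 224, 234, 235 and 230 CPM in knockout livers, against 249, 255, 263 and 271 CPM in control livers. Every knockout liver was below every control liver, at 231 ± 5.13 CPM in knockout livers and 260 ± 9.28 CPM in control livers, yet the adjusted p was 0.130 (log2 fold change −0.17, 95% confidence interval −0.30 to −0.04). It was the gene DESeq2 called.

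Slco2a1, the prostaglandin transporter, had 201, 160, 167 and 140 CPM in knockout livers, against 127, 183, 212 and 108 CPM in control livers. The control livers spread more widely than the knockout livers and enclosed them (log2 fold change 0.08, 95% confidence interval −0.39 to 0.56, adjusted p = 0.854). Slco1a4 (Oatp2), which takes up cardiac glycosides and bile acids in rodents, had 18.7, 16.2, 20.8 and 16.7 CPM in knockout livers, against 28.6, 16.6, 27.2 and 14.3 CPM in control livers. Control livers 1 and 3 were highest and control liver 4 lowest of all, and the test was not passed (log2 fold change −0.26, 95% confidence interval −0.76 to 0.25, adjusted p = 0.544). Slco3a1 had 3.74 to 5.25 CPM in knockout livers and 2.55 to 3.83 CPM in control livers, with adjusted p = 0.305. Slco1a5, Slco1c1 and Slco4a1 were each below 0.3 CPM in every liver. Slco1a6 was close to the filter, with 9, 3, 9 and 16 counts in knockout livers, against 8, 15, 20 and 9 counts in control livers.

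Among the ABC genes 3 of 38 tested changed (7.89%, against 5.39% of all genes), 1 higher and 2 lower, and the median log2 fold change was 0.03. The family summed to 837 ± 3.99 CPM per kilobase in knockout livers and 825 ± 63.4 in control livers (SD, n = 4 each), with control liver 3 highest. Over all members the 3 most abundant genes, Abcd3 and Slc22a30 among them, made up 40.8% of the summed level per kilobase. Levels of 10 CPM per kilobase or more were reached by 26 of the 61 tested members, and 19 were below 1.

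**Figure D4:**
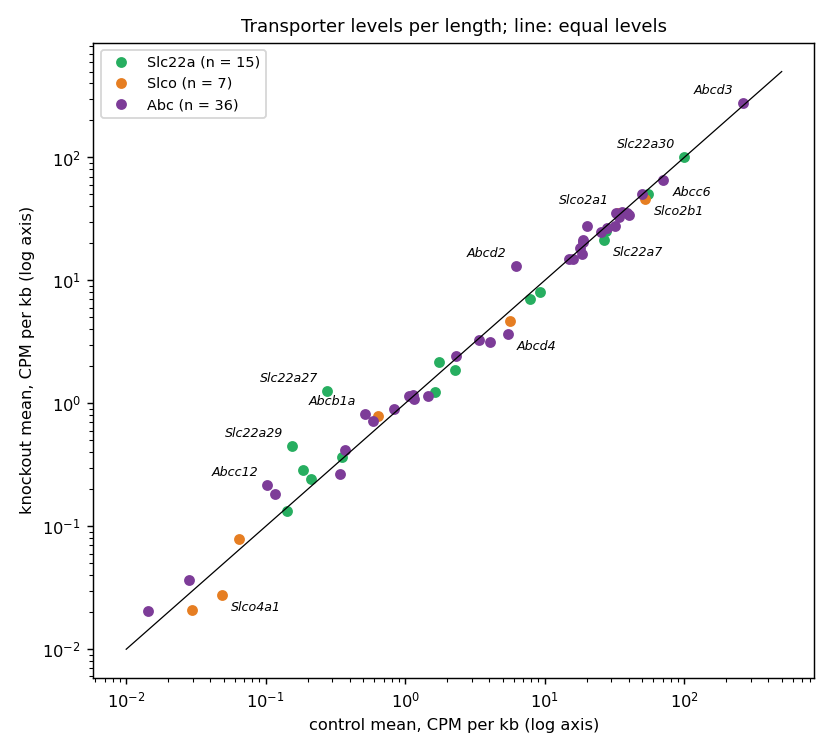
Mean level of 58 of the 61 tested members in knockout and control livers, in CPM per kilobase on log axes, by family. Most points lie close to the line of equality, and among those off it Slc22a27, Slc22a29, Abcd2 and Abcc12 lie above, at 1.25, 0.451, 13.2 and 0.217 CPM per kilobase in knockout livers, and Slco4a1 lies below, at 0.0278.

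The ABCD proteins are the acyl-CoA transporters of the peroxisome, apart from ABCD4, which acts with lysosomal proteins in the release of vitamin B12 (cobalamin) from lysosomes. Abcd4 (ENSMUSG00000021240) lies at chr12:84601464-84617413 (GRCm38, minus strand), 4.49 Mb from Zfp36l1 on the same chromosome. It had 8.47, 10, 10.1 and 8.66 CPM in knockout livers, against 15.2, 13.9, 13.6 and 12.5 CPM in control livers. All knockout livers were below all control livers, and the gap between the groups was wider than the range within the knockout group. The means were 9.33 ± 0.885 CPM in knockout livers and 13.8 ± 1.12 CPM in control livers, a log2 fold change of −0.56 (SE 0.10, 95% confidence interval −0.78 to −0.35, adjusted p = 0.0138). It passed the threshold in 17 of 17 alternative fits.

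Abcd3 (PMP70), an abundant peroxisomal membrane protein that carries branched-chain and bile acid precursor acyl-CoA, was the most abundant of all tested members per kilobase, at 277 CPM per kilobase in knockout livers and 263 in control livers. It had 1080, 1030, 1050 and 918 CPM in knockout livers, against 1020, 868, 1090 and 905 CPM in control livers, and the ranges overlap (log2 fold change 0.08, 95% confidence interval −0.13 to 0.29, adjusted p = 0.682). Abcd2, a transporter of very-long-chain and polyunsaturated acyl-CoA, had 77.9, 81.1, 84.9 and 59.4 CPM in knockout livers, against 31.4, 24.2, 73.2 and 13.9 CPM in control livers. Control liver 3 lay within the knockout range and the other 3 control livers lay below it. The log2 fold change was 1.09 (95% confidence interval −0.01 to 2.19) and the adjusted p was 0.237, and without control 3 it was 1.71 with an adjusted p of 0.0178. With all 8 libraries limma with quality weights called it, at 1.57 with an adjusted p of 0.0288, and DESeq2 did not, at an adjusted p of 0.171. The per-kilobase ratio of Abcd2 to Abcd3 was 0.0415 to 0.0517 in knockout livers and 0.00985 to 0.0432 in control livers.

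Of the 12 tested ABCA lipid transporters 1 rose (8.33%) and 0 fell, against 3.51% of all genes higher and 1.88% lower. Abca3, known for loading surfactant phospholipids into lamellar bodies of the lung, is encoded at chr17:24351950-24410201 (GRCm38, plus strand, ENSMUSG00000024130). It had 182, 183, 183 and 173 CPM in knockout livers, against 112, 131, 157 and 121 CPM in control livers. The knockout livers lay close together and above all control livers, of which liver 3 was highest. The means were 180 ± 4.65 CPM in knockout livers and 130 ± 19.3 CPM in control livers (SD, n = 4 each), a log2 fold change of 0.47 (SE 0.10, 95% confidence interval 0.25 to 0.69, adjusted p = 0.0280). The call was lost without any 1 of knockout 1, 2 or 3 and control 1, 2 or 4, with adjusted p up to 0.0784, and with scaling by total counts alone, where the adjusted p was 0.0582. An annotated gene, D330041H03Rik, overlaps Abca3 on the opposite strand, and whether counting used strand is not stated in the labels.

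The other ABCA genes did not pass. Abca6, a member of a gene cluster whose transport role is poorly known, had 267, 259, 290 and 342 CPM in knockout livers, against 265, 273, 340 and 258 CPM in control livers, and the ranges overlap almost fully (log2 fold change 0.03, 95% confidence interval −0.23 to 0.29, adjusted p = 0.907). Abca1, which passes cholesterol and phospholipid to apolipoprotein A-I, had 359, 344, 339 and 403 CPM in knockout livers, against 381, 437, 406 and 386 CPM in control livers. Knockout livers 1 to 3 lay below all controls and knockout liver 4 did not (log2 fold change −0.16, 95% confidence interval −0.33 to 0.02, adjusted p = 0.299). Abca5 had 8.42 to 10.3 CPM in knockout livers and 10.3 to 14.1 CPM in control livers, with a log2 fold change of −0.36 and an adjusted p of 0.103. Abca2, Abca7, Abca8a, Abca8b, Abca9, Abca4, Abca14 and Abca17 had log2 fold changes between −0.21 and 0.65.

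The ABCC exporters include Abcc10 (MRP7), which exports taxanes and other drugs, at chr17:46303221-46328352 (GRCm38, minus strand, ENSMUSG00000032842). Abcc10 had 17.6, 20.2, 18.2 and 17.7 CPM in knockout livers, against 24.1, 24.2, 23.1 and 22.2 CPM in control livers. The groups did not overlap and each was narrow, with means of 18.4 ± 1.21 CPM in knockout livers and 23.4 ± 0.949 CPM in control livers (SD, n = 4 each). The log2 fold change was −0.35 (SE 0.07, 95% confidence interval −0.50 to −0.19, adjusted p = 0.0252). It was lost without knockout 1, 3 or 4 or control 1 or 2, with adjusted p up to 0.0872. The gene Dlk2 is annotated on the opposite strand over part of Abcc10. Abcc12 (MRP9), an ABC protein best known from testis, had 1.20, 1.12, 0.868 and 0.735 CPM in knockout livers, against 0.323, 0.371, 0.716 and 0.427 CPM in control livers. The groups did not overlap, by a narrow margin between knockout liver 4 and control liver 3. It missed the threshold (log2 fold change 1.09, SE 0.29, 95% confidence interval 0.44 to 1.73, adjusted p = 0.0616) and passed it in DESeq2, in limma with quality weights and without control 3.

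Abcc6, the hepatic protein whose loss causes pseudoxanthoma elasticum in humans, was the most abundant of the ABCC exporters tested. It had 314, 319, 347 and 329 CPM in knockout livers, against 336, 359, 374 and 340 CPM in control livers. Only knockout liver 3 reached into the control range (log2 fold change −0.11, 95% confidence interval −0.25 to 0.04, adjusted p = 0.401). Abcc1 and Abcc5, exporters of glutathione conjugates and cyclic nucleotides, were at 1.73 to 2.81 CPM and 4.92 to 6.12 CPM in knockout livers, against 1.84 to 2.47 CPM and 4.37 to 5.78 CPM in control livers. The sulfonylurea receptor Abcc9, a regulatory subunit of potassium channels in vascular cells, had 16.7 to 30.9 CPM in knockout livers and 17.1 to 30.5 CPM in control livers, and its companion Abcc8 had at most 2 counts.

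The ABCB genes of organelles serve haem and iron-sulfur metabolism in mitochondria, except Abcb9, a lysosomal peptide transporter. Abcb10, a mitochondrial transporter needed for haem synthesis in red cell precursors, had 71.3, 65.5, 73.8 and 71.0 CPM in knockout livers, against 76.8, 81.1, 83.4 and 79.4 CPM in control livers. The groups were separate, with knockout livers lower, and the test was not passed (log2 fold change −0.19, adjusted p = 0.118). Abcb6, Abcb8 and Abcb9 had log2 fold changes of 0.01, −0.10 and 0.04. The P-glycoprotein genes shared 20.3% of the 50-base words of their coding sequences, so their counts are uncertain. Abcb1a had 2.99 to 6.35 CPM in knockout livers and 2.22 to 3.57 CPM in control livers, and Abcb1b had 0.817 to 1.53 CPM and 0.795 to 2.28 CPM in the same order. The adjusted p was 0.175 for Abcb1a and 0.589 for Abcb1b.

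The ABCG transporters include Abcg5 and Abcg8, whose products together secrete cholesterol and plant sterols into bile. Abcg5 had 67.8, 88.8, 82.6 and 102 CPM in knockout livers, against 81.6, 72.4, 88.9 and 69.6 CPM in control livers. Abcg8 had 97.1, 117, 117 and 158 CPM in knockout livers, against 128, 113, 157 and 111 CPM in control livers. The ranges overlap for both, with log2 fold changes of 0.13 (adjusted p = 0.602) and −0.06 (adjusted p = 0.859), and liver 4 was highest among the knockouts for both. The per-kilobase ratio of Abcg8 to Abcg5 was 0.846 to 0.997 in knockout livers and 1.01 to 1.14 in control livers. These genes are annotated on opposite strands and overlap, so unstranded counting could mix them. Abcg2 (BCRP), an exporter of urate and xenobiotics, had 93.6, 92.0, 75 and 87.3 CPM in knockout livers, against 105, 104, 105 and 101 CPM in control livers. Its groups did not overlap and it missed the threshold (log2 fold change −0.26, 95% confidence interval −0.43 to −0.08, adjusted p = 0.0880).

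Abcg1, which exports cholesterol to high-density lipoprotein and is prominent in macrophages, had 6.46, 4.66, 5.91 and 9.71 CPM in knockout livers, against 6.13, 4.74, 7.48 and 6.45 CPM in control livers (log2 fold change 0.11, adjusted p = 0.817). The Kupffer cell gene Clec4f had 77.9, 34.3, 49.9 and 90.6 CPM in knockout livers, against 57.2, 43.9, 56.7 and 56.4 CPM in control livers, and liver 4 was the highest knockout for both genes. Clec4f is 1 of 9 genes of the Kupffer cell and macrophage list. All 9 had log2 fold changes above 0, with a median of 0.23, but edgeR called 0 and 0 had an unadjusted p under 0.05. The list summed to 146 to 397 CPM in knockout livers and 179 to 248 CPM in control livers, and the part of these cells in the Abcg1 values was not tested. The ribosome-associated genes Abce1, Abcf1, Abcf2 and Abcf3 had log2 fold changes between −0.06 and 0.02, with group means that differed by less than the spread between livers.

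**Figure D5:**
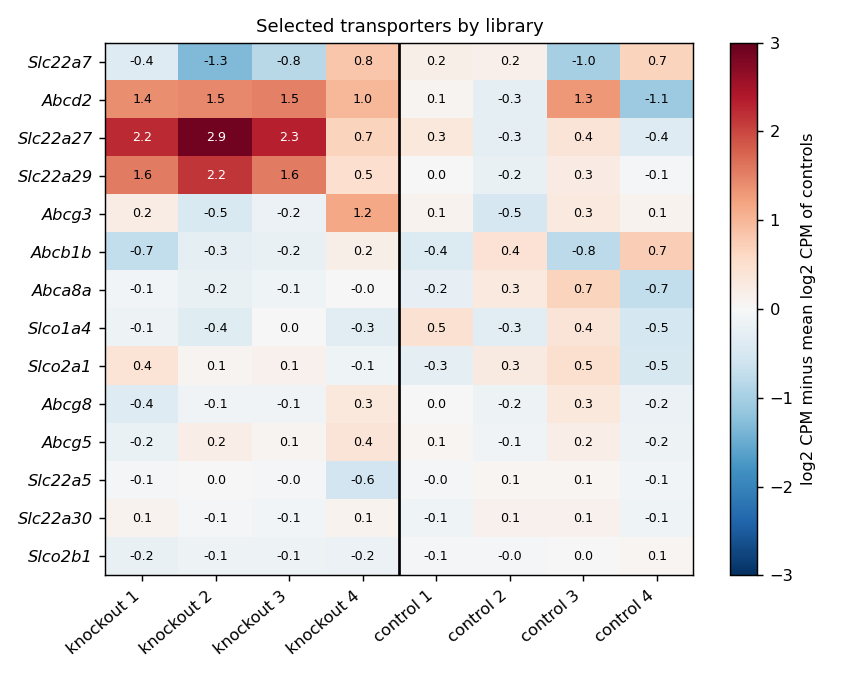
Log2 CPM of selected members in each library minus the mean log2 CPM of the 4 control libraries, as colours with the value printed, knockout libraries left. Slc22a27 and Slc22a29 are above the control mean in all 4 knockout libraries, least in knockout 4, and Abcd2 is lower in control livers 1, 2 and 4 than in control liver 3.

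The remaining 22 members did not reach the filter on low counts. Among them 8 had no count in any library: Slc22a16, Slc22a19, Slco6b1, Slco6c1, Slco6d1, Abca12, Abca16 and Abcb5. In 9 more the highest count in any library was 10 or less. The other 5 were Slco1a6, Slco4c1, Slc22a14, Abcg4 and Abca13. Abca13 had 72, 0, 0 and 40 counts in knockout livers, against 4, 0, 2 and 10 counts in control livers. The neutrophil gene S100a8 had 15.5, 0.0174, 0.0579 and 6.16 CPM in knockout livers, against 0.766, 0.111, 0.0859 and 1.49 CPM in control livers, so livers 1 and 4 were the high ones in both groups and for both genes. The 5 genes of the neutrophil list summed to 1.31 to 45.4 CPM in knockout livers and 1.40 to 6.25 CPM in control livers, with Ly6g at 0 in knockout 3 and in control livers 1 to 3, and the part of neutrophils in the Abca13 counts was not tested.

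The element TATTTAT in DNA letters is the core of the AU-rich sequence bound by the ZFP36 family. It was looked for in the longest annotated 3′ UTR of each gene, as transcribed, and shorter forms were not searched. It was present in 12 of the 61 tested members (19.7%), against 28.2% of 20006 genes and 29.4% of genes of like 3′ UTR length. Slc22a27, Slc22a29, Abca3, Abcd4 and Abcc10, the members that changed, did not hold these letters in that 3′ UTR, nor did Abcc12. Within the first 300 bases it was found in 4 of 52 members with a 3′ UTR that long (7.69%) and in 6.2% of 16588 genes. From the 6 members with the element and at least 10 CPM per kilobase, 5 are shown because they are the abundant transporters with the letters this protein family binds, and the capitals mark the element.
Slc22a30 3′ UTR site: ataaagaaTATTTATtacagtta
Abcg2 3′ UTR site: taaaaataTATTTATtggccact
Slc22a23 3′ UTR site: aatgtttgTATTTATtttggtca
Abca8b 3′ UTR site: tatatcagTATTTATtaagctct
Abca2 3′ UTR site: agcttgccTATTTATtttgcttt
Their log2 fold changes were 0.02 for Slc22a30, −0.26 for Abcg2, −0.12 for Slc22a23, 0.17 for Abca8b and 0.13 for Abca2, and none passed the threshold. A match is a description of the reference sequence and not evidence of binding.

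Genes that work with these transporters were counted from lists, to be read against the 3.51% of all genes called higher and the 1.88% called lower. Of 15 tested partners of sterol efflux and liver X receptor targets, 1 rose and 1 fell, and the median log2 fold change was 0.05. DESeq2 and limma with quality weights each called 2 higher and 2 lower, Apoe and Soat2 being added. Over all genes DESeq2 called 1014 higher and 724 lower of 14557. Limma with quality weights called 830 higher and 604 lower of 14861. Scarb1, the high-density lipoprotein receptor, had 132, 119, 146 and 161 CPM in knockout livers, against 204, 197, 190 and 199 CPM in control livers, and all knockout livers were lower (log2 fold change −0.50, adjusted p = 0.0178). The call was lost without knockout 1 or 3 or control 1 or 2, with adjusted p up to 0.0611. Smpdl3a, a phosphodiesterase gene of this list, had 39.5, 43.3, 41.7 and 35.7 CPM in knockout livers, against 28.2, 24.2, 29.8 and 24.1 CPM in control livers (log2 fold change 0.59, adjusted p = 0.0104), and kept its call without any 1 library. Whether Smpdl3a is a liver X receptor target in mouse liver was not tested.

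Of 20 genes of peroxisomal beta-oxidation and import 1 rose and 0 fell, with a median of 0.12. The log2 fold changes were above 0 for 15 and below 0 for 5. At an unadjusted p under 0.05 the count was 8 (40%), against 21.5% of all genes. Pex19, the carrier of peroxisomal membrane proteins such as ABCD3, had 172, 181, 178 and 157 CPM in knockout livers, against 127, 110, 129 and 135 CPM in control livers, with no overlap (log2 fold change 0.46, adjusted p = 0.0166, lost without knockout 1 or 3). Of 9 genes of carnitine use and synthesis 2 rose (22.2%, against 3.51% of all genes), Cpt1a and Crat, and 0 fell. Both calls rested on nearly all libraries: Cpt1a kept its call only without knockout 4 or control 3, and Crat only without knockout 4, and scaling by total counts alone ended both. Of 17 other organic ion and xenobiotic carriers 1 rose, the bile acid importer Slc10a1, at 749, 801, 893 and 805 CPM in knockout livers, against 632, 478, 546 and 606 CPM in control livers (log2 fold change 0.52, adjusted p = 0.0209, lost without knockout 3). At an unadjusted p under 0.05 the count of these carriers was 7 (41.2%), against 21.5% of all genes. With the library number as a replicate block, 3 of these carriers were higher and 1 lower. That fit called 653 of all 14861 genes higher and 375 lower.

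Of 13 genes for the nuclear receptors PXR and CAR and their drug-metabolising targets, 1 fell and 0 rose. Nr1i3, which encodes CAR, had 70.7, 63.0, 82.1 and 53.0 CPM in knockout livers, against 96.2, 112, 129 and 84.1 CPM in control livers, where every knockout liver was lower (log2 fold change −0.65, adjusted p = 0.0493), and the call was kept only without control 4 among the fits that left out 1 library, and lost with RLE scaling, with no filter and in limma with quality weights. In mitochondrial haem and iron-sulfur synthesis, edgeR called 0 of 17 genes, 1 had an unadjusted p under 0.05, and DESeq2 and limma with quality weights called 0. Among 10 ribosome partners of ABCE1 and ABCF1 edgeR called 0, and 0 had an unadjusted p under 0.05, while DESeq2 and limma with quality weights called 0. The 7 bile acid transporters outside the symbol rule had a median log2 fold change of 0.14, and edgeR called 0 of them. At an unadjusted p under 0.05 the count was 1, against 21.5% of all genes. DESeq2 and limma with quality weights each called 1 higher, Abcc2. Over all genes DESeq2 called 1014 of 14557 higher and limma with quality weights 830 of 14861.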

How the data were processed

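RNA of 8 mouse livers was analysed, 4 knockout and 4 control. Per the labels' protocols, the illustra QuickPrep mRNA Purification kit served for RNA extraction, and the NEBNext Ultra II RNA kit for library preparation. The authors deposited raw counts per gene for each library, and a gene length column, per the file headers in bases, which was used only for levels per kilobase. The genome was mm10, per the submitters' processing notes. Not given in the sources used here are the aligner, the counter, the annotation and whether strand was used. In each library 67.4% to 70.8% of counts up to 20 were even, so counts divided by 2 were also fitted.

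Genes were filtered with filterByExpr, which left out 10378 and kept 99.99% of counts. Counts were scaled with TMM and tested with edgeR 4.0.16 (R 4.3.3) by the quasi-likelihood test with robust estimation and Benjamini-Hochberg adjustment over 14861 genes, at 0.05, with 6 residual degrees of freedom. Standard errors are the absolute log2 fold change over the square root of F. CPM values use TMM-scaled library sizes. Floors of 3 counts cover counting error only. Alternatives were other scalings and filters, DESeq2 1.42.0, limma 3.58.1 with voom quality weights, a replicate block and leaving out each library. Same-numbered libraries of the groups deviated together (correlations 0.17 to 0.44, against at most 0.07 for other numbers). Deviations were taken from group means, so a positive value for the same number lowers the others, and that contrast is partly built in. The labels do not state a pairing. The main fit left the libraries unpaired, and the replicate block, an alternative, took the numbers as pairs. Libraries of 1 group differed by 82.8 to 370 chi-square units per gene, far beyond sampling noise.

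Named members were those past the threshold with a log2 fold change of any size, those with separate groups and a log2 fold change of at least 0.5, and the 3 most abundant per kilobase in each family. Other members named were chosen for their role or after their values were seen. Values of 3 tested members are not reported here, though they count in every total. The members and gene lists were chosen with earlier results of these data known. Gene positions and 3′ UTRs came from GENCODE M21 (GRCm38), in which all 83 symbols matched 1 gene, and promoter windows from RefSeq (GRCm38.p6), which held 67 of the 83. Coding sequences were aligned with MAFFT 7.526.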

Additional observations from a re-analysis of the deposited data

Results flagged for a closer look

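In 5 of 124 groups of 4 libraries 1 library lay far from the others relative to the range of its group, and chance flags about 1 in 20 such groups. For Abca3 the knockout library 4 was at 173 CPM, while the other knockout libraries were at 182 to 183 CPM. Abce1 was at 92.4 CPM in knockout library 1 and at 94.9 to 95.2 CPM in the others. Slc22a4 reached 4.17 CPM in control library 3, above the 3.57 to 3.63 CPM of the other controls. Slc22a5 was at 16.3 CPM in knockout library 4, below 23.3 to 24.8 CPM in the other knockouts. Slco4a1 was at 0.189 CPM in knockout library 1 and at 0.0506 to 0.0698 CPM in the others. No explanation was tested for these values.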

How the results depend on the processing

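The count of changed genes was 801 (521 higher, 280 lower). Scaling by total counts alone gave 1730, with 1338 lower and 392 higher. DESeq2 gave 1738 (1014 higher, 724 lower) and limma with quality weights 1434 (830 higher, 604 lower). Leaving out 1 library gave 211 to 967, with 169 to 583 higher and 42 to 384 lower, and the lowest counts came without knockout 3. For the members, 5 changed (3 higher, 2 lower). Total counts alone called 9 (7 lower), at least 1 CPM in 4 libraries 3 (1 higher, Slc22a27 and Slc22a29 being filtered out), DESeq2 8 (4 lower) and limma with quality weights 8 (6 higher). Leaving out 1 library gave 1 to 7 members, 0 to 5 higher and 1 to 2 lower. The cause of these shifts was not tested.

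With the library number as a replicate block, 1028 genes changed and the same 5 members were called, with adjusted p of 0.015 for Slc22a27, 0.0299 for Slc22a29, 0.0194 for Abca3, 0.0175 for Abcd4 and 0.0304 for Abcc10. No other call on a member changed under the block. Zfp36l1 was at −2.08 to −1.86 when 1 library was left out.

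The estimates of members near 0 changed sign in some settings, and edgeR called none of these members. Under total counts alone the log2 fold changes were −0.09 for Abca6, −0.06 for Abca7, −0.1 for Abcb6, −0.08 for Abcb9, −0.002 for Abcc5, −0.04 for Abcd3, −0.1 for Abcf2, −0.1 for Abcf3, −0.01 for Abcg1, −0.08 for Slc22a17, −0.1 for Slc22a30 and −0.04 for Slco2a1. Upper quartile scaling gave −0.004 for Abcb6 and −0.002 for Abcf2. Limma with quality weights gave 0.07 for Abca8a, −0.03 for Abcb9 and 0.12 for Abcc9. Leaving out 1 library gave −0.06 to 0.13 for Abca6, −0.02 to 0.12 for Abca7, −0.4 to 0.06 for Abca8a, −0.04 to 0.07 for Abcb6, −0.08 to 0.15 for Abcb9, −0.21 to 0.08 for Abcc9, −0.03 to 0.07 for Abcf2, −0.05 to 0.12 for Abcf3, −0.13 to 0.25 for Abcg1, −0.14 to 0.49 for Abcg3, −0.21 to 0.06 for Abcg8, −0.08 to 0.2 for Slc22a17, −0.33 to 0.03 for Slc22a2, −0.03 to 0.06 for Slc22a30 and −0.06 to 0.26 for Slco2a1.

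With 4 libraries a group, a difference that misses the threshold is not shown to be absent, and members under 1 CPM rest on few counts. Near-identical paralogs and overlapping genes are uncertain.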

Other observations

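Marker lists of the other liver cell types were counted in the same fit. In the cholangiocyte list, edgeR called 1 of 6 genes lower and 0 higher, against 1.88% of all genes lower. The log2 fold changes were above 0 for 3 of the 6 and below 0 for 3, with a median of −0.07. The gene called, Sox9, had 8.09, 3.73, 4.27 and 4.58 CPM in knockout livers, against 11.5, 14.2, 11 and 10.3 CPM in control livers (log2 fold change −1.18, edgeR adjusted p = 0.0242). Its call was lost without knockout 2, 3 or 4 or control 1 or 2. The list summed to 30.4 to 44.9 CPM in knockout livers and 42.2 to 57.0 CPM in control livers, which overlap. The sinusoidal endothelial list summed to 174 to 249 CPM in knockout livers and 170 to 240 CPM in control livers, and the stellate cell list to 244 to 369 CPM in knockout livers and 213 to 307 CPM in control livers. T, NK and B cell genes summed to 0.817 to 1.69 CPM in knockout livers and 0.616 to 1.34 CPM in control livers.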
